A study of Mus musculus with 7 samples.

Results

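The 10 genes described here are immediate early genes outside the AP-1 family whose transcripts are induced through the antigen receptor: the nuclear receptors Nr4a1, Nr4a2 and Nr4a3, the zinc finger factors Egr1, Egr2 and Egr3, the early response genes Ier2, Ier3 and Ier5, and Myc. They were taken by symbol from a table of 24084 genes, and all 10 were found and passed the low-count filter among the 11376 genes tested. Messenger RNA was sequenced from regulatory T cells (Tregs), the CD4 T cells that depend on the transcription factor Foxp3, in 4 libraries from telogen skin (the resting phase of the hair cycle) and 3 libraries from skin draining lymph nodes (SDLN). All mice were 6 weeks old and of the Foxp3-DTR strain, named Foxp3-DTR/GFP in the study's design, in which a diphtheria toxin receptor and a green fluorescent protein are tied to Foxp3. The comparison asks how Treg transcripts in skin differ from those in the draining nodes. How many animals went into a library, and how the cells were gated, the sources used here do not state, so p-values measure the spread between these libraries.

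Immediate early genes are transcribed within minutes of a stimulus, from factors already present in the cell, and need no new protein. In T cells the antigen receptor drives NR4A and EGR genes through calcium and MAP kinase signals, and Nr4a1 reporters are used to read recent receptor signalling. NR4A receptors are also needed to keep Treg identity, while Egr2 and Egr3 restrain T cell activation and Myc drives growth and nucleolar activity.

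Total gene counts were 11009609 to 13921238 in skin and 13123241 to 14785751 in SDLN, so that 3 counts stood for 0.214 to 0.276 CPM (counts scaled to library size) in skin and 0.204 to 0.232 CPM in SDLN. Skin libraries were the more variable, with a median coefficient of variation per gene of 0.7499 in skin and 0.187 in SDLN, and had 9690 to 12639 genes detected in skin against 13408 to 13845 in SDLN. The labels of skin 1 are at odds, with a tissue entry for the lymph node but a title and source of skin, so results are also given without it. SDLN 3 was the sole library with many transcripts of the Y-linked gene Ddx3y, at 3877 counts against at most 2 in any other library. Xist, the transcript of the inactive X chromosome, had 4 counts in SDLN 3 and 4653 to 11758 in the other libraries. By these genes SDLN 3 looked male and the other libraries female, so sex was not matched between the groups. The part of sex in the results was not tested. All 8 Treg markers checked, Foxp3 and Cd3e among them, had counts in both tissues, and they summed to 7899 to 12539 CPM in skin and 8298 to 9979 CPM in SDLN. They did not go one way, since Ctla4 and Ikzf2 were called higher in skin, at 3820 ± 856 and 2938 ± 745 CPM in skin against 651 ± 132 and 1319.5 ± 134 CPM in SDLN, while Cd3d, Cd3e and Cd4 were lower in every skin library than in any SDLN library without passing the test. Cd3e, for example, was at 882 ± 349.6 CPM in skin and 1848 ± 308 CPM in SDLN (adjusted p = 0.118). Of 15 macrophage and dendritic cell markers, 3 of the 11 tested were called higher in skin, where 3.28% of all genes tested were, and the sum of the 15 was 953 to 10601 CPM in skin against 450 to 698 CPM in SDLN. Itgax and Cd14, markers of that list, had no count in SDLN. In skin, Itgax had counts in skin 4 alone, and Cd14 had 0, 1, 205 and 317 counts in skin 1 to 4. Of 8 keratinocyte and 6 fibroblast markers most signal was in skin 3, at 1172 and 2000 CPM, while the other skin libraries had at most 68.7 and 8.84 CPM and SDLN at most 7.39 and 0.882 CPM. The most abundant markers were Cd74 for macrophages and dendritic cells, with 2808 ± 2916 CPM in skin and 377 ± 100.3 CPM in SDLN, Krt17 for keratinocytes and Col3a1 for fibroblasts (SD, n = 4 and n = 3). Other cells in the sorted libraries can express early genes too, and their part in the results was not tested. In these bulk libraries fewer cells of a type and less RNA per cell cannot be told apart.

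The stretches of promoter below are shown because the 3 NR4A genes were each above SDLN in every skin library while Egr2 was not. They run from 250 bases before to 50 bases after a transcript start and are RefSeq sequences of GRCm38.p6, the assembly also called mm10. Of the 10 genes, 6 had an entry. Capitals mark the core of the cAMP response element (CRE), TGACG or its reverse complement, which CREB family factors bind, and in Egr2 also a CArG box, the binding motif of serum response factor.
Nr4a1 (chr15:101266596-101266895, plus strand): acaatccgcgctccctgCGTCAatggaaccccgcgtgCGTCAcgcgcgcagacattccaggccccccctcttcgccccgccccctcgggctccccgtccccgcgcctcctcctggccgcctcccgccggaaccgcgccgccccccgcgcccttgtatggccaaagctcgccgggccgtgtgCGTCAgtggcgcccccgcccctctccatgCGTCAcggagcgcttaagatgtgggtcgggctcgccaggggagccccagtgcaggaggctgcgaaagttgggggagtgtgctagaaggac
Nr4a2 (chr2:57123954-57124253, minus strand): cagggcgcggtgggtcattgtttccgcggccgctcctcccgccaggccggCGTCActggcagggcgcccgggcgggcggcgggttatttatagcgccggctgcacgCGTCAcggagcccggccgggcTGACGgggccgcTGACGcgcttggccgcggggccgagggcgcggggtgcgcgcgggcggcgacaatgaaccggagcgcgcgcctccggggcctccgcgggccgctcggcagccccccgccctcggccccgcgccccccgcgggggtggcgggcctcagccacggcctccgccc
Nr4a3 (chr4:48045055-48045354, plus strand): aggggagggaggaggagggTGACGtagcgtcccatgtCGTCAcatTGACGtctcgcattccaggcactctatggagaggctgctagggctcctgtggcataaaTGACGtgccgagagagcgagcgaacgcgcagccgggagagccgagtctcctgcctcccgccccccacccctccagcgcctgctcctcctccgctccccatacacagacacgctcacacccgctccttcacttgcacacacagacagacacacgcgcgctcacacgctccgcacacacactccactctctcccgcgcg
Egr2 (chr10:67537619-67537918, plus strand): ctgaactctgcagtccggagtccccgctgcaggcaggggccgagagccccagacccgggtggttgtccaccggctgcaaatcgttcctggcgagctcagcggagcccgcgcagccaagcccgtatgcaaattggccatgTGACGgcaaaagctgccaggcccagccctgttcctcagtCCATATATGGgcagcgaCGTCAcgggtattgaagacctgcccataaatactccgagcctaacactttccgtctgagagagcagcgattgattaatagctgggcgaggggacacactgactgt

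Each of the 3 NR4A promoters held 4 CRE cores, at 233, 213, 69 and 40 bases before the start in Nr4a1, at 200, 144, 123 and 111 in Nr4a2 and at 231, 213, 205 and 147 in Nr4a3. Of 32851 promoters of the same length, 20.8% held at least 1 core on either strand and 76 (0.231%) held at least 4, where a full palindromic element counts as a pair. The Egr2 window held 2 cores, where 5.01% of promoters held at least 2, and 1 CArG box at 72 bases before the start, a motif in 1.63% of promoters. It was picked as the most upstream Egr2 window with both motifs, so these shares cannot tell whether its content is unusual. Egr2 has 5 such windows, of which 3 overlap and share these matches, another held 1 CArG box and the most upstream held neither motif. The windows of Ier3 and Ier5 held neither. An EGR site, GCGNGGGCG, stood at 60 bases before the start in Nr4a1 and at 74 in Nr4a2, and 5.55% of promoters held it. The NR4A motif AAAGGTCA (1.51% of promoters) and the AP-1 site TGANTCA (7.81%) were in none of the windows of these genes, and no match overlapped another motif. Matches are letters in a window and were not tested as sites. The genes shown were picked by their levels, and a link between motifs and levels was not tested.

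Nr4a1 and Nr4a2 rose in skin Tregs, and none of the 10 genes fell at an adjusted p under 0.05 in edgeR's quasi-likelihood test. Nr4a1 was 20.4-fold and Nr4a2 45.3-fold higher, while the EGR genes lay on both sides of their SDLN level and the 3 IER genes were high in 3 of 4 skin libraries. So 2 of 10 genes were called, both higher, where 7.24% of all genes tested were called (3.28% higher and 3.96% lower). The 0 called lower compare with 1 by DESeq2, 1 by limma-voom and 1 at an unadjusted p under 0.05, where 5 were higher. The median log2 fold change of the 10 was 1.99, against 0.05 over all genes tested. Libraries did not overlap between the tissues for 4 of the 10, where 26.6% of all genes tested did not overlap, with skin above for the 3 NR4A genes (10.1% of all genes tested) and skin below for Myc (16.5%). Nr4a3, 1 of those 3, and Ier3 entered the test through skin alone, with no SDLN library at 10 counts. Their high folds, which enter the median, and the separation of Nr4a3 follow in part from that filter. The number called higher depended on the libraries, being 1 without SDLN 1, SDLN 2 or SDLN 3 and 5 without skin 1, and 1 gene was called lower without skin 2. The number over all genes moved too. Called higher were 39, 33 and 61 without SDLN 1, SDLN 2 and SDLN 3 and 582 without skin 1, against 373 with all libraries. Called lower without skin 2 were 543, against 451.

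**Figure D1:**
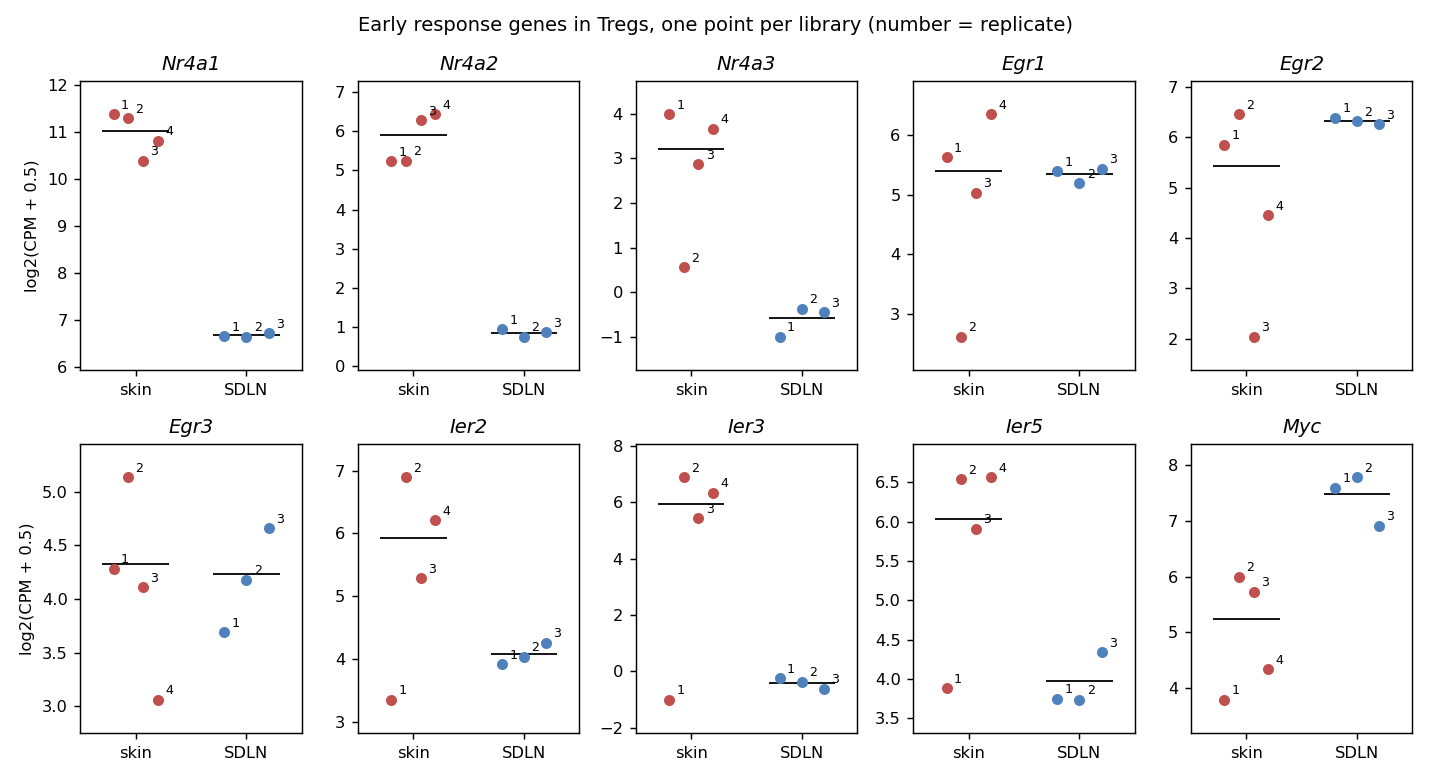
Level of each gene in every library as log2(CPM + 0.5), skin left of SDLN, with points numbered by replicate and a line at log2 of the mean CPM + 0.5. The tissues separate for Nr4a1, Nr4a2, Nr4a3 and Myc, and skin 1 falls among or below the SDLN libraries for Ier2, Ier3 and Ier5.

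Nr4a1, also called Nur77, is the NR4A receptor most used as a readout of antigen receptor signals. Nr4a1 (chromosome 15, 101254269 to 101274795) had 2637, 2497, 1331 and 1790.1 CPM in skin 1 to 4, against 99.7, 98.9 and 104 CPM in SDLN 1 to 3. Every skin library stood far above every SDLN library, and skin 3 was the lowest of the skin libraries. It averaged 2064 ± 613 CPM in skin (SD, n = 4) and 101 ± 2.89 CPM in SDLN (SD, n = 3), a log2 fold change of 4.35 (SE 0.33, adjusted p = 0.00127). It held that call under each of the 21 alternative settings tried, with log2 fold changes of 4.18 to 4.52, and leaving out any 1 library gave adjusted p of 0.00199 to 0.0175. Without skin 1 the log2 fold change was 4.22 (adjusted p = 0.00345).

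Nr4a2, or Nurr1, is a close paralog best known from dopamine neurons. Nr4a2 (chromosome 2, 57106830 to 57124003) had 37.1, 37.6, 77.5 and 85.9 CPM in skin 1 to 4, against 1.42, 1.17 and 1.31 CPM in SDLN 1 to 3. All skin libraries were above all SDLN libraries, with skin 3 and skin 4 about level and above skin 1 and skin 2. Its means were 59.5 ± 25.8 CPM in skin and 1.304 ± 0.126 CPM in SDLN, a log2 fold change of 5.50 (SE 0.73, adjusted p = 0.00998). The SDLN counts were 17 to 21 per library, and the gene did not pass without SDLN 1, SDLN 2 or SDLN 3 (adjusted p = 0.0902, 0.0850 and 0.0737), although its log2 fold change stayed at 5.42 to 5.55. Without skin 1 it passed (log2 fold change 5.68, adjusted p = 0.00785).

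Nr4a3, or NOR-1, the third receptor of the family, had the lowest mean CPM of the 10 genes in skin. In SDLN it and Ier3 were both near 0, with 7 and 11 counts in all, and the order of their CPM lay within the spread. Nr4a3 (chromosome 4, 48045153 to 48086447) had 15.3, 0.971, 6.79 and 12.1 CPM in skin 1 to 4, against 0, 0.276 and 0.232 CPM in SDLN 1 to 3. Skin 2, with 12 counts, lay closest to SDLN, where the 3 libraries held 7 counts in all. It averaged 8.79 ± 6.28 CPM in skin and 0.169 ± 0.148 CPM in SDLN, and its test missed the threshold (log2 fold change 5.62, SE 1.88, adjusted p = 0.143). Nr4a3 entered the test through skin alone, since no SDLN library reached 10 counts.

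Per length of exon, Nr4a1 made up nearly all NR4A transcript in both tissues. Its share of the summed CPM per kb was 98.5%, 98.7%, 94.9% and 95.7% in skin 1 to 4, against 98.8% in each of SDLN 1 to 3. The Nr4a2 share was 1.20%, 1.29%, 4.78% and 3.97% in skin 1 to 4, against 1.22%, 1.01% and 1.08% in SDLN. Skin 3 and skin 4 thus had the larger Nr4a2 shares, and skin 1 and skin 2 lay near the SDLN range. The summed NR4A level was 763, 721, 399 and 533 CPM per kb in skin 1 to 4, against 28.7, 28.5 and 30.1 CPM per kb in SDLN.

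**Figure D2:**
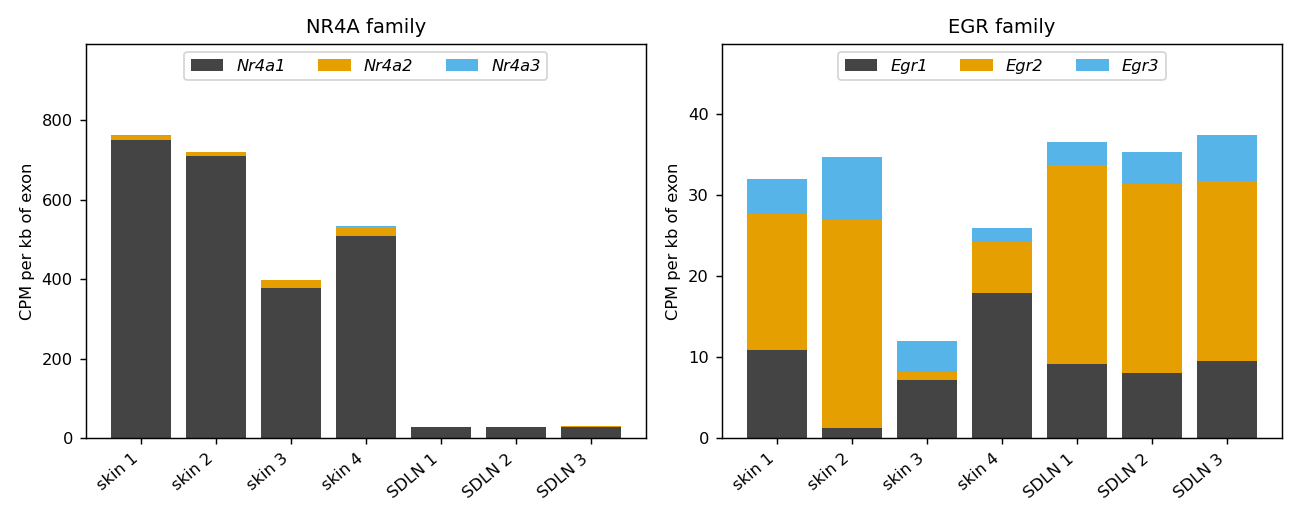
Stacked levels in CPM per kb of exon for the NR4A genes (left) and the EGR genes (right) in each library, skin before SDLN. NR4A sums are 399 to 763 CPM per kb in skin and 28.5 to 30.1 in SDLN, nearly all Nr4a1, while EGR sums are 12.04 to 34.7 CPM per kb in skin and 35.4 to 37.4 in SDLN with a mix that changes between skin libraries.

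None of the EGR genes passed the test, and in skin their levels moved apart from library to library. Egr1, the family member induced most widely across cell types (chromosome 18, 34859823 to 34864984), had 48.7, 5.66, 32.2 and 80.4 CPM in skin 1 to 4, against 41.4, 36.0 and 42.6 CPM in SDLN 1 to 3. Skin 2 was far below the SDLN range and skin 4 well above it. The log2 fold change of Egr1 was 0.06, with 2 SE bounds from -1.52 to 1.65 (adjusted p = 0.987), and its sign turned under 9 of 21 settings.

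Egr2, which restrains T cell activation and is induced through calcineurin and NFAT (chromosome 10, 67535475 to 67542188), had 57.3, 87.0, 3.61 and 21.3 CPM in skin 1 to 4, against 83.2, 79.3 and 75.7 CPM in SDLN 1 to 3. Skin 2 was above all SDLN libraries and the other skin libraries were below them, with a 24.1-fold span between the highest and the lowest skin library against 1.10-fold in SDLN. It did not pass (42.3 ± 37.2 CPM in skin and 79.4 ± 3.74 CPM in SDLN, log2 fold change -0.91 with 2 SE bounds from -2.65 to 0.83, adjusted p = 0.691). Egr3, which acts with Egr2 (chromosome 14, 70077203 to 70082614), had 18.96, 34.7, 16.7 and 7.85 CPM in skin 1 to 4, against 12.4, 17.6 and 24.8 CPM in SDLN 1 to 3. The tissues overlapped, with skin 2 highest and skin 4 lowest of all. Its log2 fold change was 0.10, with 2 SE bounds from -1.52 to 1.72 (adjusted p = 0.977), and it turned sign under 6 of 21 settings.

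The make-up of the EGR transcripts spanned a wider range of shares among skin libraries than among SDLN libraries. Egr2 held 52.6%, 73.7%, 8.83% and 24.2% of the summed EGR level per kb in skin 1 to 4, against 67.0%, 66.0% and 59.6% in SDLN 1 to 3. Egr1 held 33.9%, 3.64%, 59.6% and 68.99% in skin 1 to 4, against 25.3%, 22.7% and 25.4% in SDLN. Egr3 held the rest, 13.4%, 22.7%, 31.6% and 6.85% in skin 1 to 4, against 7.71%, 11.3% and 15.05% in SDLN, where it was the member whose share varied most in proportion. Egr2 was thus the main member in skin 1, skin 2 and SDLN, and Egr1 in skin 3 and skin 4. Each skin library had a lower EGR sum per kb than each SDLN library, at 32.0, 34.7, 12.04 and 25.98 in skin against 36.5, 35.4 and 37.4 in SDLN.

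The IER genes were high in skin 2, skin 3 and skin 4 and not in skin 1. Ier2, a nuclear protein induced by growth factors (chromosome 8, 84661331 to 84662852), had 9.76, 118.6, 38.6 and 73.5 CPM in skin 1 to 4, against 14.7, 15.9 and 18.7 CPM in SDLN 1 to 3. Skin 1 was below every SDLN library and the other skin libraries were above. Ier2 did not pass (60.1 ± 46.9 CPM in skin and 16.4 ± 2.06 CPM in SDLN, log2 fold change 1.87, SE 0.83, adjusted p = 0.284), and passed without skin 1 (log2 fold change 2.23, adjusted p = 0.0425).

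Ier3, also called IEX-1, is an NF-kappaB target that regulates cell death (chromosome 17, 35821684 to 35822923). It had 0, 117.9, 42.7 and 80.1 CPM in skin 1 to 4, against 0.339, 0.276 and 0.154 CPM in SDLN 1 to 3. Skin 1 had no count, which allows up to 0.276 CPM, and the other skin libraries had 485 to 1457 counts, against 2 to 5 counts in SDLN. The tissues overlapped through skin 1 alone. Ier3 did not pass (60.2 ± 50.5 CPM in skin and 0.257 ± 0.0939 CPM in SDLN, log2 fold change 7.82, SE 2.20, adjusted p = 0.0843) and passed without skin 1 (log2 fold change 8.23, adjusted p = 0.00506). It entered the test through skin alone, with no SDLN library at 10 counts.

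Ier5, a stress-induced gene that in human cells can activate heat shock factor 1 (chromosome 1, 155096361 to 155099636), had 14.3, 92.6, 59.5 and 94.1 CPM in skin 1 to 4, against 13.0, 12.8 and 19.7 CPM in SDLN 1 to 3. Skin 1 fell within the SDLN range and the other skin libraries were all above it. Ier5 did not pass (65.1 ± 37.5 CPM in skin and 15.2 ± 3.92 CPM in SDLN, log2 fold change 2.102, SE 0.73, adjusted p = 0.158) and passed without skin 1 (log2 fold change 2.44, adjusted p = 0.0276).

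Heat shock and dissociation-linked genes were also high in some skin libraries. Of 19 such genes, 7 were called higher in skin, where 3.28% of all genes tested were, and the 19 summed to 5153, 9936, 4809 and 7909 CPM in skin 1 to 4, against 2861, 2650 and 3121 CPM in SDLN 1 to 3. On average the early genes Fos and Dusp1 made up most of the gap in the sum, and chaperones added to it in some skin libraries. Fos had 1895, 2603, 747 and 1289 CPM in skin 1 to 4, and Dusp1 had 473, 2295, 606 and 1194 CPM. In SDLN they had at most 5.95 and 8.57 CPM. Skin 2 and skin 4, the libraries with the most Ier2, Ier3 and Ier5, had the largest sums. Hspa1a, an inducible chaperone, had 3.04, 37.8, 40.4 and 95.7 CPM in skin 1 to 4 and no count in SDLN, and Jun had 1.29, 19.2, 6.96 and 24.2 CPM in skin, against 2.04, 1.45 and 2.09 CPM in SDLN. Skin 1 was the lowest skin library for 14 of the 19 genes, these among them, skin 2 for 3 and skin 3 for 2. The list did not all go that way, as Fos was lowest in skin 3 and Dnaja1 was highest in skin 1, and the sum of the list was lowest in skin 3. Hsp90ab1, a chaperone and the most abundant gene of that list, was at 2778 ± 767 CPM in skin and 2298 ± 187 CPM in SDLN. It had 1899, 3362, 2375 and 3477 CPM in skin 1 to 4, against 2361, 2087 and 2445 CPM in SDLN 1 to 3. Hspa1a has a near-identical copy, Hspa1b, between which reads could be split. Hspa1a, Jun, Fos, Dusp1 and Dnaja1 were chosen after their values were seen, and the part of these genes in the early gene results was not tested.

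Myc, the transcription factor of cell growth (chromosome 15, 61985391 to 61990374), was lower in every skin library than in any SDLN library and missed the threshold. It had 13.3, 63.3, 52.5 and 19.7 CPM in skin 1 to 4, against 193, 220.4 and 120.2 CPM in SDLN 1 to 3. Skin 1 and skin 4 were the lowest, and SDLN 3 was the lowest SDLN library. The means were 37.2 ± 24.4 CPM in skin and 178 ± 51.7 CPM in SDLN, a log2 fold change of -2.26 (SE 0.59, adjusted p = 0.0637). Myc passed without skin 2 (log2 fold change -2.68, adjusted p = 0.0405), and without skin 1 it did not (log2 fold change -1.97, adjusted p = 0.0569).

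**Figure D3:**
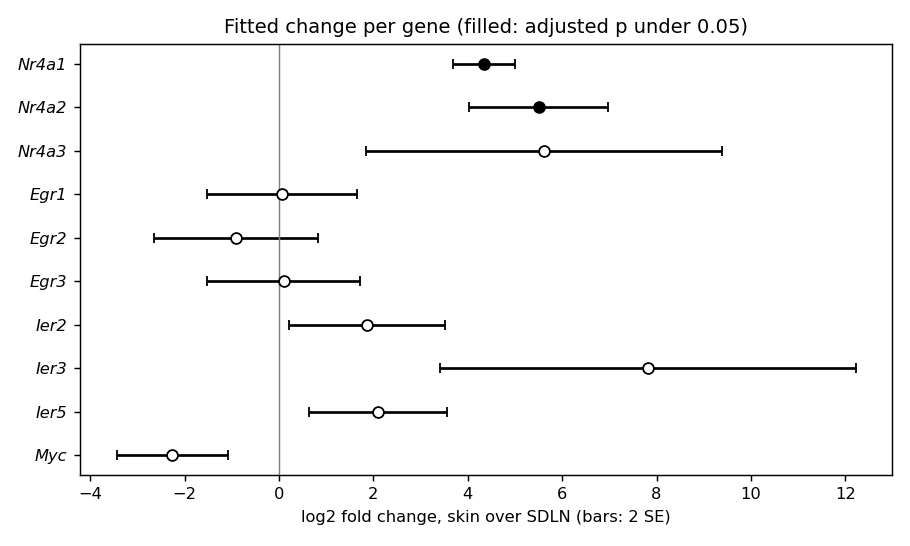
Fitted log2 fold change, skin over SDLN, of each gene with bars of 2 SE, filled where the adjusted p was under 0.05. Nr4a1 and Nr4a2 are filled, at 4.35 and 5.50, and the bars of Egr1, Egr2 and Egr3 cross 0.

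The 10 genes did not order the skin libraries in one way. Skin 1 was the highest of the 4 for Nr4a1 and Nr4a3 and the lowest for Nr4a2, Ier2, Ier3, Ier5 and Myc. Skin 2 was the highest for 5 genes, Egr2, Egr3, Ier2, Ier3 and Myc, and the lowest for Nr4a3 and Egr1. Skin 4 was the highest for 3, Nr4a2, Egr1 and Ier5, and skin 3 for 0. Nr4a1 varied least among skin libraries, with a coefficient of variation of 0.297, followed by Nr4a2 at 0.434, and the other 8 genes had 0.571 to 0.880, against a median of 0.7499 over all genes tested. In SDLN the coefficients were 0.0286 for Nr4a1 and 0.0471 for Egr2, and 0.876 for Nr4a3 with its 7 counts, against a median of 0.187 over all genes tested.

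**Figure D4:**
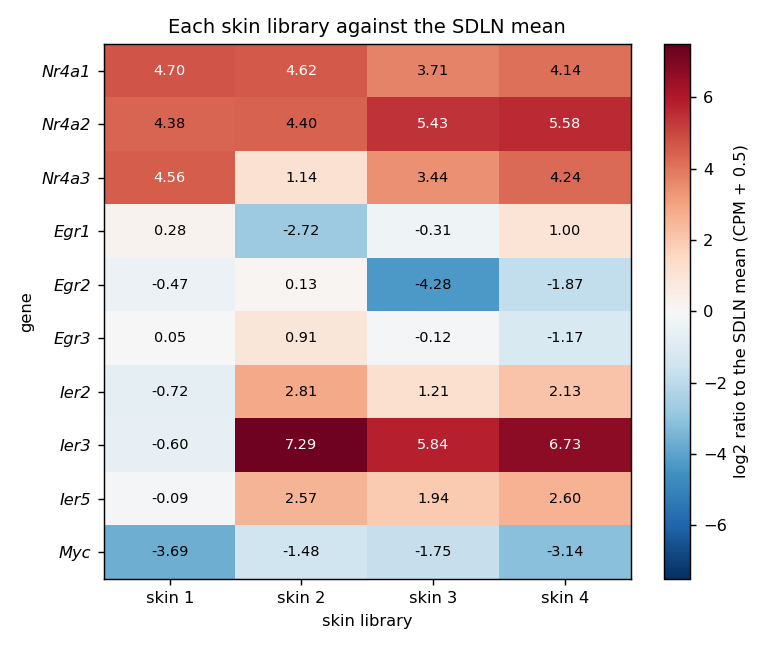
Log2 ratio of each skin library to the SDLN mean, on CPM + 0.5, for the 10 genes (rows) in the 4 skin libraries (columns), red above and blue below. The ratio of Nr4a1 is 3.71 to 4.70 in all skin libraries, that of Ier3 is -0.60 in skin 1 and 5.84 to 7.29 in the others, and that of Egr2 runs from -4.28 to 0.13.

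Ranked per length, the order of the 10 genes also differed between the tissues. In skin Nr4a1 came first at 588 ± 175 CPM per kb, followed by Ier3 at 53.2 ± 44.6 and Ier2 at 39.5 ± 30.8 CPM per kb. From Ier3 through Ier5, Nr4a2, Myc, Egr2 and Egr1 to Egr3, at 4.44 ± 2.54 CPM per kb, each gene differed from its neighbour in the order by less than the larger of their SDs. In SDLN Myc came first at 65.5 ± 19.04 CPM per kb, then Nr4a1 at 28.8 ± 0.824 and Egr2 at 23.4 ± 1.10 CPM per kb, and neighbours differed by more than the larger SD except Ier5 and Egr3. The last places there, Ier3 and Nr4a3, rest on 11 and 7 counts in all, so their order is not resolved. Nr4a3 had the lowest level per kb in skin, at 1.47 ± 1.05 CPM per kb, and was at 0.0283 ± 0.0248 CPM per kb in SDLN (SD, n = 4 and n = 3).

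The genes whose profile over the 7 libraries was most like that of Nr4a1, by root mean square distance of centred log2 CPM among 7038 genes averaging 20 CPM or more, were Ahnak, Rgs2, Nav2, Per1 and Tnfaip3. Ahnak, a very large scaffold protein, lay at a distance of 0.199 with 3378 ± 582 CPM in skin and 163 ± 18.5 CPM in SDLN. Per1, a circadian clock gene that is itself an early gene, lay at 0.325 with 149.9 ± 38.7 CPM in skin and 7.72 ± 0.933 CPM in SDLN. Nav2 lay at 0.318 with 245 ± 96.1 CPM in skin and 11.3 ± 2.21 CPM in SDLN, and Rgs2 and Tnfaip3 lay at 0.305 and 0.352. The gap between the tissues takes up most of each profile, and its size sets the likeness.

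Most of the other early response genes listed outside AP-1 rose in skin. Of a list of 28, 24 were tested and 16 were called higher and 0 lower, against 3.28% and 3.96% of all genes tested, and their median log2 fold change was 2.88, against 0.05 over all genes tested. Like the other lists, it was chosen with earlier results of these data known, so its count is no independent support for the members. DESeq2 called 0 of this list lower and limma-voom called 1, where they called 507 and 729 of all genes tested lower. In edgeR 1 had a negative change at an unadjusted p under 0.05. Rgs2, a brake on G protein signalling, had 536, 781, 465 and 688 CPM in skin 1 to 4, against 29.5, 23.6 and 36.9 CPM in SDLN 1 to 3, and was 20.6-fold higher (log2 fold change 4.36, SE 0.33, adjusted p = 0.00127). Tnfaip3, the NF-kappaB brake A20, had 1899, 1707, 948 and 1416 CPM in skin 1 to 4, against 63.8, 66.7 and 36.9 CPM in SDLN 1 to 3, and was 26.7-fold higher (log2 fold change 4.74, SE 0.39, adjusted p = 0.00162). In both genes every skin library was above every SDLN library. The list's count was 4, 3 and 5 without SDLN 1, SDLN 2 and SDLN 3, and 16 without skin 1. Over all genes, those called higher then numbered 39, 33 and 61, and 582 without skin 1, against 373 with all libraries. Arc, chosen after its values were seen, was the list's member with the most negative fold change (0.0404 ± 0.0809 CPM in skin and 3.18 ± 1.38 CPM in SDLN, adjusted p = 0.0663), and Egr4 had no count in any library. Genes detected also differed between the tissues, at 9690 to 12639 in skin against 13408 to 13845 in SDLN. So did the macrophage and dendritic cell markers, at 953 to 10601 CPM in skin against 450 to 698 CPM in SDLN. Their part in the result for this list was not tested.

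**Figure D5:**
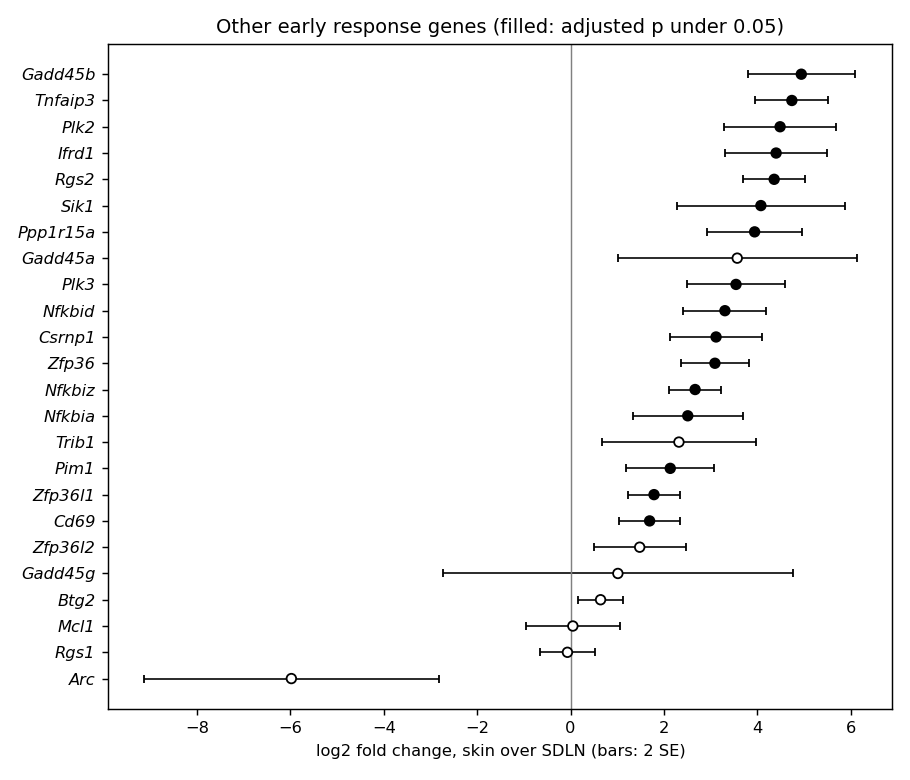
Fitted log2 fold change, skin over SDLN, with bars of 2 SE, for the 24 tested genes of the list of other early response genes, filled where the adjusted p was under 0.05. The 16 filled genes all lie right of 0, and Arc lies farthest to the left.

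Of 14 upstream activators of early genes, among them serum response factor, its cofactors, CREB, MEF2 and NFAT factors, 1 rose and 0 fell, and 13 did not pass, where 7.24% of all genes tested were called (3.28% higher and 3.96% lower), so the count is near that of all genes. The median log2 fold change of the activators was 0.41, against 0.05 over all genes tested. Crem, a CREB family gene with activating and repressing products, had 725, 608, 602 and 843 CPM in skin 1 to 4, against 52.7, 59.1 and 80.9 CPM in SDLN 1 to 3, and was the gene that rose (log2 fold change 3.43, SE 0.29, adjusted p = 0.00157). Its libraries did not overlap between the tissues. The count was 2 without skin 3. DESeq2 and limma-voom each called 0 activators lower, and 0 had a negative change at an unadjusted p under 0.05 in edgeR.

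Of 12 tested partners and corepressors of these factors, 2 rose and 0 fell, where 3.28% of all genes tested were called higher and 3.96% lower. Their median log2 fold change was 0.75, against 0.05 over all genes tested. At an unadjusted p under 0.05 there were 3 higher and 0 lower, and DESeq2 and limma-voom each called 0 lower. Rxra, the retinoid X receptor that pairs with Nr4a1 and Nr4a2, had 228, 324, 72.3 and 170.6 CPM in skin 1 to 4, against 18.1, 20.6 and 18.5 CPM in SDLN 1 to 3 (log2 fold change 3.38, SE 0.54, adjusted p = 0.0176). Mxd1, which competes with Myc for its partner Max, had 475, 220.4, 226 and 195 CPM in skin 1 to 4, against 102, 89.7 and 72.4 CPM in SDLN 1 to 3 (log2 fold change 1.66, SE 0.39, adjusted p = 0.0415). Skin was above SDLN in every library for both genes. Neither passed without SDLN 1, SDLN 2 or SDLN 3, where the count was 0 and that of all genes called higher was 39, 33 and 61.

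Of 15 genes of the nucleolus and of growth that Myc is known to activate, 1 rose, 1 fell and 13 did not pass, where 3.28% of all genes tested were called higher and 3.96% lower. The median log2 fold change was -1.02, against 0.05 over all genes tested. Pa2g4, a growth-regulated nucleolar protein, had 122, 165, 165 and 237 CPM in skin 1 to 4, against 403, 323 and 489 CPM in SDLN 1 to 3, and fell (log2 fold change -1.23, SE 0.29, adjusted p = 0.0434). Odc1, the first enzyme of polyamine synthesis, had 55.2, 202, 73.6 and 90.1 CPM in skin 1 to 4, against 4.21, 3.04 and 4.09 CPM in SDLN 1 to 3, and rose (log2 fold change 4.80, SE 0.65, adjusted p = 0.0106). Skin libraries were all below SDLN libraries for 9 of the 15 genes, where 16.5% of all genes tested were, and all above for 1. Neither gene passed without SDLN 1, SDLN 2 or SDLN 3. Lower genes numbered 2 without skin 1 and 0 without skin 3.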

How the data were processed

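The authors deposited raw counts of reads for each gene symbol, 1 column per library, made with HTSeq 0.6.1 per the submitters' processing notes. Those notes list SAMtools 0.1.19.0, Bowtie2 2.1.0.0, TopHat2 2.0.12 and CASAVA 1.8.2 too, and the build mm10. Per the labels' protocols, cDNA was made with a SMARTer ultra low input kit. The annotation and the strand setting used for counting are not stated there. No exon of another gene overlaps those of the 10 genes in GENCODE M21, whose positions and exon lengths are used. HTSeq summary lines were left out. They held 61.2% to 70.4% (several alignments) and 10.0% to 17.1% (no feature) of all values.

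Genes were filtered with filterByExpr (minimum count 10), scaled by TMM and tested with edgeR 4.0.16 in R 4.3.3 (quasi-likelihood, robust, tissue as sole term, two-sided, Benjamini-Hochberg adjusted p under 0.05). CPM use TMM-scaled sizes. SEs come from the test statistic. The fit adds a small prior count, so folds of genes near 0 counts depend on it. Alternatives used DESeq2 1.42.0, limma 3.58.1, other scalings, filters and thresholds, a replicate block and leaving out each library.

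Members and lists were chosen with earlier results of these data known. Named genes are the 10 members, up to 2 called genes per list, the top gene of a marker list and the 5 genes nearest Nr4a1. The most abundant markers not described further were Kit (mast cell), Cd79b (B cell), Cd8b1 (CD8 T and NK cell) and Pecam1 (endothelium), at 8.94, 17.5, 12.0 and 40.8 CPM in skin against 8.66, 64.1, 37.1 and 488 CPM in SDLN. Krt17 and Col3a1 were at 136 and 364 CPM in skin against 0.397 and 0 CPM in SDLN. In skin 6 of 7 mast cell markers had no count.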

Additional observations from a re-analysis of the deposited data

How the results depend on the processing

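Nr4a1 was called higher under all 21 alternatives and Nr4a2 under 16. Calls were gained under 3 (Nr4a3), 1 (Ier2), 3 (Ier3), 3 (Ier5) and 4 (Myc) alternatives. Nr4a3 was filtered out at a mean of at least 5 CPM, and Ier3 without skin 2, skin 3 or skin 4 and in the 6-library block, so those settings give no value. Called higher among the 10 genes were 5 with DESeq2, 5 with sample-weighted voom and 1 to 5 leaving out 1 library, and called lower were 1 with DESeq2, voom and sample-weighted voom and 0 to 1 leaving out 1 library. Over all genes, 373 were higher, against 188 with no filter, 923 with DESeq2, 757 with sample-weighted voom, 594 with a variance weight per tissue (an alternative added after the data were seen), 72 at an adjusted p under 0.01 and 33 to 582 leaving out 1 library. Lower were 451, against 70 with no filter, 99 at 5 CPM, 729 with voom, 985 and 987 with its weighted forms, 16 at 0.01 and 9 to 822 leaving out 1 library.

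Other early response genes called higher numbered 10 with voom, 9 at 0.01 and 3 to 16 leaving out 1 library, and called lower 1 with each form of voom and 0 to 1 leaving out 1 library. Higher activators were 2 with DESeq2 and both weighted forms of voom, and 1 to 2 leaving out 1 library. Higher partners were 1 with no filter, at 5 CPM, with voom and with glmTreat, 0 at 0.01, and 0 to 2 leaving out 1 library. Growth genes called higher were 0 with voom and at 0.01, and 0 to 1 leaving out 1 library. Growth genes called lower were 2 with upper-quartile scaling, DESeq2, voom and sample-weighted voom, 0 with no filter, at 5 CPM, at 0.01 and with glmTreat, and 0 to 2 leaving out 1 library.

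The log2 fold change of Egr1 was -0.022 with upper-quartile scaling, -0.42 with voom, -0.045 and -0.43 with sample and tissue weights, and -0.49 to 0.41 leaving out 1 library (-0.021 without SDLN 2 and -0.019 without skin 1). That of Egr3 was -0.027, -0.059, -0.099 and -0.054 under those settings and -0.36 to 0.37 leaving out 1 library (-0.13 without SDLN 1). The median over all genes was -0.62, -0.50 and -0.62 with voom and its sample and tissue weights, against 0.05. The causes were not tested.

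Libraries share replicate numbers in their titles, and deviations of same-numbered libraries correlated at 0.0774, -0.00237 and -0.0482. Libraries with unlike numbers correlated at -0.0950 to 0.123, so these values cannot tell whether the numbers mark pairs. SDLN 3 had 3877 counts of the Y-linked gene Ddx3y and skin 3 had 2, so that number does not join material of the same animals. With a replicate block over 7 and over 6 libraries, 1 and 1 of the 10 genes were called higher, 44 and 32 of all genes higher and 12 and 10 lower, 5 and 5 other early genes higher, 0 and 0 partners higher and 0 and 0 growth genes in either direction, and Egr1 changed by -0.90 and -0.92. Nr4a2 then had adjusted p of 0.126 and 0.206. In SDLN, Nr4a3 and Ier3 had at most 5 counts in a library and Nr4a2 had 17 to 21, and the part of this depth in their calls was not tested.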
